A study of Mus musculus with 6 samples.

Results

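The MYC, MAX and MXD network is a small family of transcription factors that share MAX as a common dimer partner. Its 10 genes were taken by symbol from the authors' deposited table, and all 10 have a row of their own among the 51482 measurements of the table. RNA was sequenced from SV40-immortalised wild-type mouse embryonic fibroblasts, a bulk cell line model in which the viral large T antigen removes normal control of the cell cycle. Cells were held for 16 h at 21% oxygen (normoxia, 3 samples) or at 0.5% oxygen (hypoxia, 3 samples), and both groups carry the same genotype and immortalisation. The sources used here do not say whether the replicates came from more than 1 line. The question here is how this network responds to low oxygen. For each gene and condition the table holds 1 FPKM, a level scaled to transcript length and library size, into which the authors combined their replicates. Values of single samples were not used here, and levels are therefore given without SD. The verbs rose and fell are used for genes whose q in the authors' deposited table, from Cuffdiff, is below 0.05. Library depth is unknown.

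MYC, MYCN and MYCL are activators: each pairs with MAX through a basic helix-loop-helix leucine zipper, binds the E-box CACGTG and drives genes of growth, ribosome production and nucleotide synthesis. MXD1, MXI1 (also called MXD2), MXD3, MXD4 and MNT pair with the same MAX, bind the same E-boxes and bring the SIN3 histone deacetylase complex, so that they oppose MYC. MGA also pairs with MAX and is the scaffold of a Polycomb repressive complex. Low oxygen stabilises the hypoxia-inducible factors (HIFs), which bind the core letters ACGTG or GCGTG, and Mxi1 is a known HIF target.

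Most antagonist transcripts rose, led by Mxi1, and the activator transcripts Myc and Mycn fell. Of the 10 members 9 were called in the authors' deposited table, against 57.9% of all 14575 tested measurements. Of these 7 were higher in hypoxia, where 28.9% of all tested measurements were, and 2 were lower, where 29% were. A called change of at least 2-fold was seen in 4 members (Mxi1, Mnt, Mxd1 and Mycn) and in 18.9% of all tested measurements. The median log2 fold change of hypoxia over normoxia was 0.43 over the 10 members and -0.013 over all tested measurements with both values above 0. All 10 members were tested and lay above a mean of 1 FPKM, so none was lost to a filter on low values.

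**Figure D1:**
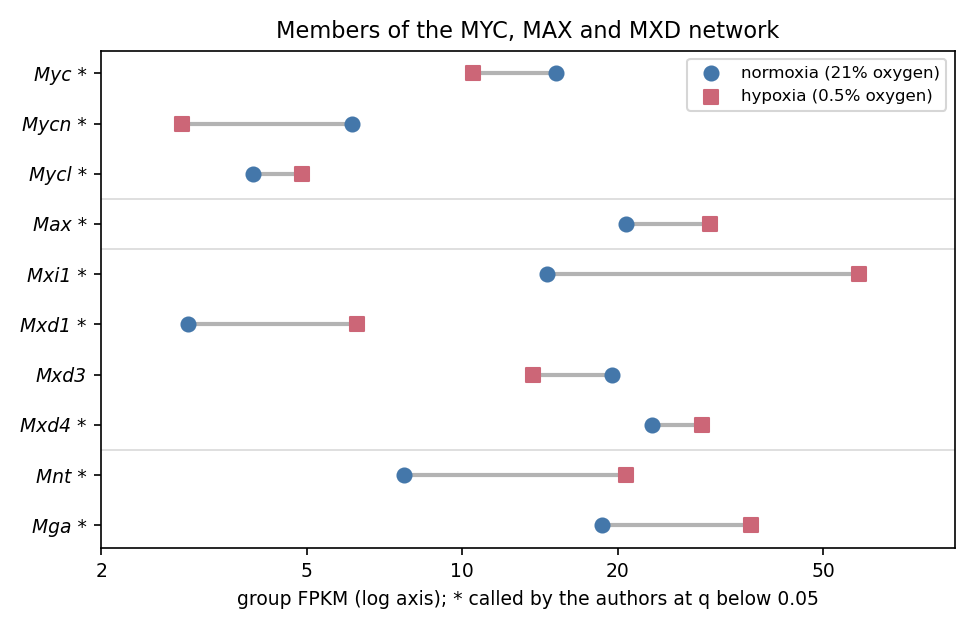
Group FPKM of each member (log axis) at 21% oxygen (circles) and at 0.5% oxygen (squares), asterisks marking genes the authors called and lines parting the roles. Mxi1 moves from 14.6 to 58.6 FPKM, whereas Myc and Mycn lie lower in hypoxia and Mxd3 has no asterisk.

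Of the 3 activator genes 2 fell and 1 rose. Myc (chromosome 15, 61985391 to 61990374 on GRCm38, plus strand) is the founding member and the activator with the highest level. From 15.2 FPKM in normoxia it fell to 10.5 FPKM in hypoxia, or 1.45-fold, with q = 0.000269 in the authors' deposited table. Mycn (chromosome 12, 12936093 to 12941914, minus strand), best known from embryonic and neural tissue, fell from 6.11 to 2.86 FPKM, or 2.13-fold (q = 0.000139 in the authors' deposited table). Of all tested measurements 10.6% had a lower log2 fold change than Mycn, and 25.1% had a lower one than Myc. Mycl (chromosome 4, 122995652 to 123002485, plus strand) went the other way. It rose from 3.93 to 4.90 FPKM, a 1.24-fold change with q = 0.0109 in the authors' deposited table, the largest q among the 9 called members. Myc made up 60.2% of the summed activator FPKM in normoxia and 57.5% in hypoxia, while the share of Mycn went from 24.2% to 15.7% and that of Mycl from 15.6% to 26.8%. The long noncoding RNA gene Pvt1, which follows Myc on the same chromosome and was looked up after the other values had been seen, shares its measurement with 3 small predicted genes. The joint measurement of Pvt1 stood at 11.4 FPKM with normal oxygen and at 22.3 FPKM with low oxygen, with q = 0.0654 in the authors' deposited table and hence no call.

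Max, the obligate partner (chromosome 12, 76937269 to 76962201, minus strand), rose from 20.8 to 30.1 FPKM. This 1.45-fold change carried q = 0.000139 in the authors' deposited table, the smallest q that the table holds. That q is shared by 5148 tested measurements and by 6 of the 10 members, so it does not rank them. The log2 fold change of Max was 0.54, and 23.6% of all tested measurements had a larger one.

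Among the antagonists Mxi1 changed most. Its gene (chromosome 19, 53310518 to 53375810, plus strand) went from 14.6 FPKM in normoxia to 58.6 FPKM in hypoxia, a 4.01-fold rise with q = 0.000139 in the authors' deposited table. Only 3.49% of all tested measurements had a larger log2 fold change. In normoxia Mxi1 was the sixth most abundant member and stood close to Myc, and in hypoxia it was the most abundant of the 10. RefSeq gives Mxi1 3 start sites in GRCm38.p6, and the table has 1 value for the gene, so the starts cannot be told apart. Mnt (chromosome 11, 74830920 to 74845725, plus strand), the antagonist that is expressed in dividing as well as resting cells, rose from 7.72 to 20.8 FPKM (2.69-fold, q = 0.000139 in the authors' deposited table). Mxd1 (chromosome 6, 86647042 to 86669161, minus strand), which is induced in differentiating cells, rose from the lowest level of all members in normoxia, 2.94 FPKM, to 6.26 FPKM (2.13-fold, q = 0.000139 in the authors' deposited table). Log2 fold changes larger than those of Mnt and Mxd1 were found in 6.22% and 9.80% of all tested measurements.

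The remaining MXD genes changed less. Mxd4 (chromosome 5, 34173883 to 34187720, minus strand) had the highest level of the 10 in normoxia, 23.3 FPKM, and rose to 29.1 FPKM. Its change of 1.25-fold had q = 0.00669 in the authors' deposited table. Mxd3 (chromosome 13, 55325168 to 55329823, minus strand), the MXD gene that is linked to the S phase of dividing cells, was the 1 member without a call. Its FPKM was 19.5 at normal oxygen and 13.7 at low oxygen (q = 0.332 in the authors' deposited table). A ratio of 1.42-fold was thus not called for Mxd3, whereas ratios of 1.45-fold were called for Max and Myc. The table places Mxd3 in a locus shared with Rab24 and Prelid1, and Mxd3 and Prelid1 overlap by 105 bases on opposite strands. Prelid1 had far higher levels than Mxd3, 199 FPKM before and 328 FPKM under low oxygen. The libraries were stranded, but no source used here says whether counting used the strand, and a part of Prelid1 reads in the Mxd3 value was not tested. Mxi1 is overlapped on the other strand by Gm10197, which was at 0.671 and 5.02 FPKM (q = 0.263 in the authors' deposited table).

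Mga (chromosome 2, 119897228 to 119969581, plus strand) rose from 18.7 to 36.4 FPKM, 1.95-fold with q = 0.000139 in the authors' deposited table. It was the second most abundant member in hypoxia after Mxi1. Of the 7 members outside the MYC genes, 6 rose and none fell, and Mxd3 got no call.

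**Figure D2:**
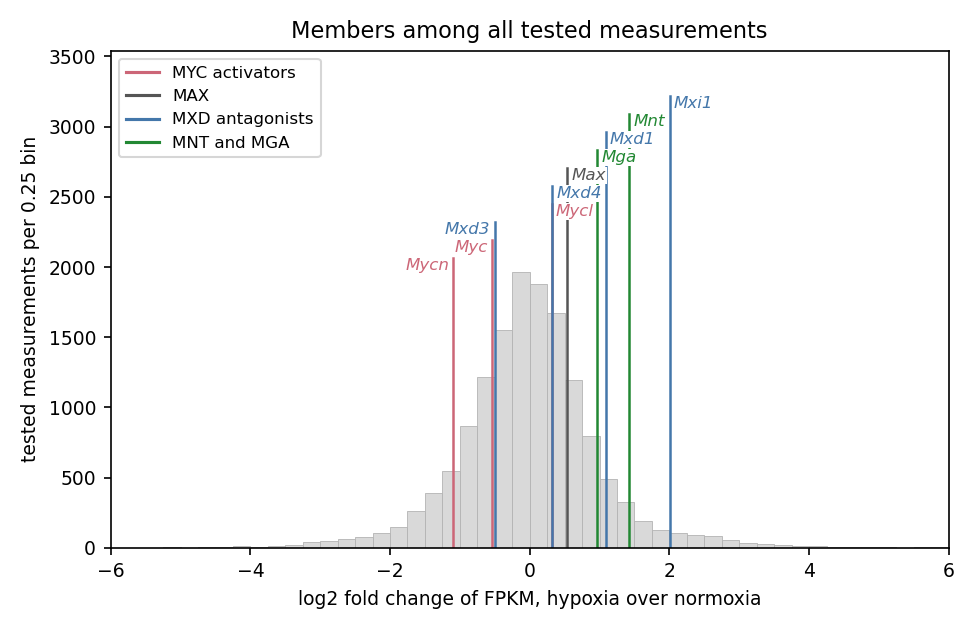
Histogram of the log2 fold change of FPKM, hypoxia over normoxia, over all tested measurements with both values above 0 (grey, bins of 0.25, shown from -6 to 6), with a coloured line for each member by role. Mycn lies at -1.09 and Mxi1 at 2.00, and the lines of Mycl and Mxd4 lie together at 0.32.

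The order of levels among the members changed with oxygen. In normoxia the order from high to low was Mxd4, Max, Mxd3, Mga, Myc, Mxi1, Mnt, Mycn, Mycl and Mxd1, and in hypoxia it was Mxi1, Mga, Max, Mxd4, Mnt, Mxd3, Myc, Mxd1, Mycl and Mycn. With 1 value per condition there is no spread by which to say which neighbours in these orders differ. Summed over role, the activators went from 25.2 to 18.3 FPKM (1.38-fold lower), and the 5 antagonists (Mxi1, Mxd1, Mxd3, Mxd4 and Mnt) went from 68.1 to 129 FPKM (1.89-fold higher). The antagonists thus had 2.70 FPKM for each FPKM of activator in normoxia and 7.04 in hypoxia, a 2.61-fold difference. Mxi1 gained more than any other antagonist, 44.0 FPKM. Its share of the antagonist FPKM was 21.5% in normoxia and 45.6% in hypoxia, while the share of Mxd3 went from 28.6% to 10.7%. Without Mxi1 and Myc, the genes of each role with the highest mean over both conditions (in normoxia Mxd4 and Mxd3 lay above Mxi1), the ratio of antagonists to activators was 1.69-fold higher in hypoxia. These sums describe RNA, carry no test, and say nothing of the protein levels.

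Set against Myc alone, Mxi1 had 0.962 FPKM for each FPKM of Myc in normoxia and 5.58 in hypoxia. The same ratio went from 0.508 to 1.98 for Mnt, from 0.194 to 0.597 for Mxd1 and from 1.53 to 2.78 for Mxd4, and it was 1.28 and 1.31 for Mxd3. Against the shared partner Max, the activators had 1.21 FPKM for each FPKM of Max in normoxia and 0.606 in hypoxia, and the antagonists had 3.27 and 4.26. All 9 partners together had 5.39 FPKM for each FPKM of Max in normoxia and 6.07 in hypoxia.

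**Figure D3:**
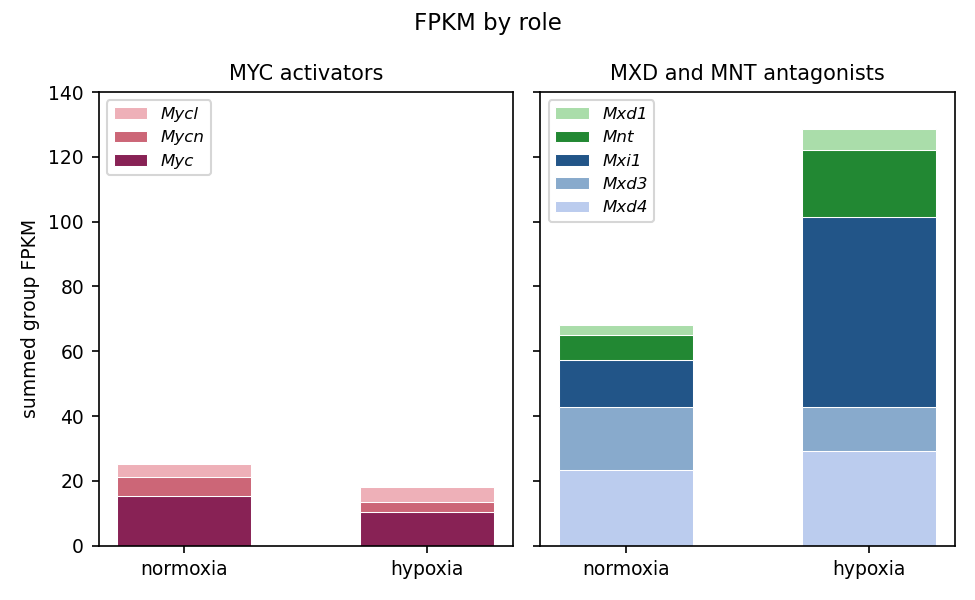
Summed group FPKM of the activators (left) and of the antagonists (right) in each condition, stacked by gene on a common axis from 0. The activator sum goes from 25.2 to 18.3 FPKM and the antagonist sum from 68.1 to 129 FPKM, with Mxi1 the widest segment in hypoxia.

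Promoter sequences are shown because members of the network that rose together differ in which of the letters bound by MYC-MAX, MXD-MAX and HIF stand before their starts. RefSeq windows on GRCm38.p6, from 250 bases before a start to 50 bases after it, were matched for 9 of the 10 members, with 11 windows in all. The E-box CACGTG was searched for on both strands, as was the HIF core in its forms ACGTG or GCGTG, and each E-box also holds ACGTG on either strand. Below, motif letters are in capitals, CACGC being GCGTG on the other strand, and each stretch runs 5′ to 3′ in the direction of the gene, ending at most 13 bases past the start.
Mxi1, second start (chr19:53329272-53329421, plus strand): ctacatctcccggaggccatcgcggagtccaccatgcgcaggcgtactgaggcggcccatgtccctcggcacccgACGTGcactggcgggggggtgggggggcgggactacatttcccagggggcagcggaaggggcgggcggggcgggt
Mnt (chr11:74830674-74830876, plus strand): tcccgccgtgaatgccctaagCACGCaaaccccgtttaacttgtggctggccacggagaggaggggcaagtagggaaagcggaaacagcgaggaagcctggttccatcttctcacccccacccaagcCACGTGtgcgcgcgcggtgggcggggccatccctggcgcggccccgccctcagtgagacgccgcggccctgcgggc
Mxd4 (chr5:34187854-34187960, minus strand): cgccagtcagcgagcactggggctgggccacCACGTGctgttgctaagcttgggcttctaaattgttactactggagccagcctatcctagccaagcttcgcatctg
Max (chr12:76962236-76962326, minus strand): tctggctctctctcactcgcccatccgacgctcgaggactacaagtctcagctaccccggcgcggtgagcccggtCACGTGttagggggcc
Mga (chr2:119897133-119897240, plus strand): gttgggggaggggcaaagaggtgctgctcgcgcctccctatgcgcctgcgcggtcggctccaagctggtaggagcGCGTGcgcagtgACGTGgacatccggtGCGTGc

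The E-box CACGTG stood in the windows of Mnt, Mxd4 and Max, 3 of the 11 member windows (27.3%), beside 7.15% of all 32851 windows in the RefSeq table. It began 123 bases before the start in Mnt, 219 in Mxd4 and 3 in Max. All of these genes were called higher, but so were 7 of the 10 members in all. ACGTG was found in 6 of the 11 member windows (54.5%) and in 19.6% of all windows, and GCGTG in 5 (45.5%) and in 32.4% of all windows. In Mnt, Mxd4 and Max the only ACGTG was that inside the E-box already counted. Outside an E-box, ACGTG stood only in windows of Mxi1 and Mga. In Mxi1 the first window held none of these letters, the second held ACGTG 66 bases before the start, and the third held ACGTG 25 bases before the start. The third window overlaps the second in the genome and lies inside transcripts that begin upstream. Mxd1 and Mycl held GCGTG without ACGTG. The windows of Mycn, which fell, and of Mxd3, which was not called, held none of the 3 motifs. Genes expressed in these cells have motif-rich windows in general: among 8529 genes with a measurement of 1 name and a mean of at least 1 FPKM, 12.0% had CACGTG in at least 1 window, 30.1% had ACGTG and 58.3% had GCGTG. Counted in the same way over the 9 matched members, the shares were 33.3%, 55.6% and 55.6%, so GCGTG was no more frequent among the members than among expressed genes. A match is a run of letters and not a measured site, and no test was made.

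The other arm of the network, built on MLX instead of MAX, held 1 called gene. Mlxip, which encodes the glucose-sensing factor MondoA, rose from 6.74 to 8.28 FPKM (1.23-fold, q = 0.0292 in the authors' deposited table). Mlx itself was at 34.1 and 30.9 FPKM (q = 0.393) and was not called there. Mlxipl, the gene of ChREBP, was at 0.600 and 0.661 FPKM and lay below the filter used for lists.

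For lists of related genes, measurements with 1 gene name and a mean of at least 1 FPKM were counted. Of these 11767 measurements 32.3% were called higher and 31% lower in the authors' deposited table, and their median log2 fold change on the scale of log2(FPKM + 1) was 0.0022. Each list below is described by its counts and its median on that scale, with no test of the list.

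The SIN3 complex is the corepressor that MXD and MNT proteins recruit. Of its 18 counted genes 9 rose, 3 fell and 6 were not called in the authors' deposited table, with a median log2 fold change of 0.23. These counts stand beside 32.3% higher and 31% lower among all counted measurements. Sap30, a subunit that stabilises the complex, rose from 25.5 to 129 FPKM (5.08-fold), more than any member of the network. Ing2, which reads methylated histone H3, rose 3.29-fold from 25.4 FPKM, Sap18 rose 2.44-fold to 314 FPKM, and Fam60a rose 2.30-fold. The scaffold gene Sin3a, chosen after its value was seen, rose from 22.3 to 34.6 FPKM, and Sin3b stood at 132 and 124 FPKM (q = 0.494 in the authors' deposited table). The genes that fell were Brms1 (1.96-fold), Brms1l (1.95-fold) and the deacetylase gene Hdac1 (1.45-fold, from 130 to 89.6 FPKM).

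Genes of the Polycomb complex around MGA were split. Of 12 counted genes 4 rose, 5 fell and 3 were not called in the authors' deposited table, with a median log2 fold change of -0.095. These shares, 33.3% higher and 41.7% lower, lie near the 32.3% and 31% of all counted measurements. L3mbtl2, whose product is a core subunit that compacts chromatin, fell from 19.6 to 6.92 FPKM (2.83-fold), and Pcgf6, which defines this complex, fell 1.55-fold. E2f6 and Tfdp1, the genes of its E2F-type DNA-binding pair, fell 1.32-fold and 1.31-fold. Rybp rose from 9.44 to 19.0 FPKM (2.01-fold), Rnf2, which encodes the ubiquitin ligase RING1B, rose 1.70-fold, Tfdp2 rose 1.33-fold and Yaf2 rose 1.16-fold.

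Cofactors of MYC also moved both ways. Of 19 counted genes 8 rose, 5 fell and 6 were not called in the authors' deposited table, with a median log2 fold change of 0.17. These shares, 42.1% higher and 26.3% lower, stand beside 32.3% and 31% of all counted measurements, so falls were no more frequent than in general. Ccnt1, a cyclin of the elongation factor P-TEFb, rose 1.97-fold, Aurka rose 1.87-fold to 140 FPKM and Ruvbl2 rose 1.67-fold. The paralogue of Ruvbl2, Ruvbl1, fell 1.72-fold from 55.9 to 32.6 FPKM, and the acetyltransferase gene Kat2a fell 1.73-fold. Paf1 fell 1.38-fold and Wdr5, which holds MYC on chromatin and is also counted with the Polycomb complex, fell from 42.9 to 33.0 FPKM.

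The list on turnover of the MYC protein also holds genes of MYC-binding proteins, such as Mycbp. Of its 19 counted genes 10 rose, 5 fell and 4 were not called in the authors' deposited table, with a median log2 fold change of 0.31. These shares were 52.6% higher and 26.3% lower, beside 32.3% and 31% of all counted measurements. Genes that stabilise MYC and genes that mark it for degradation are mixed here, so the median says nothing of MYC stability. Trim32, a ubiquitin ligase, rose 2.24-fold, Gsk3b, the kinase that marks MYC for degradation, rose from 18.8 to 41.8 FPKM (2.22-fold), and the deubiquitinase genes Usp37 and Usp28 rose 2.09-fold and 2.00-fold. Fbxw7, the ubiquitin ligase subunit that reads the mark of GSK3, fell from 5.38 to 3.28 FPKM (1.64-fold, q = 0.0406 in the authors' deposited table). Set fell 1.85-fold and Mycbp fell 1.53-fold. Skp2 is listed at 0 in both conditions and was not tested by the authors, and a listed 0 need not mean that the gene is silent.

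Of the other basic helix-loop-helix zipper factors that bind E-boxes, 5 of 6 counted genes rose in the authors' deposited table and 1 was uncalled, with a median log2 fold change of 0.52. The share that rose was 83.3%, beside 32.3% of all counted measurements. Not counted was Mitf, which lay below the filter and fell from 0.343 to 0.163 FPKM (q = 0.0057 in the authors' deposited table). Usf1 shares its measurement with Tstd1 and so was not counted either. That measurement was not called (q = 0.704 in the authors' deposited table). Tfec was not tested by the authors. Tfap4, the gene of AP4, itself a known target of MYC, rose from 4.70 to 24.7 FPKM (5.27-fold). Usf2 rose 1.76-fold, the lipid regulators Srebf1 and Srebf2 rose 1.58-fold and 1.25-fold, and the lysosomal regulator Tfe3 rose 1.31-fold.

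**Figure D4:**
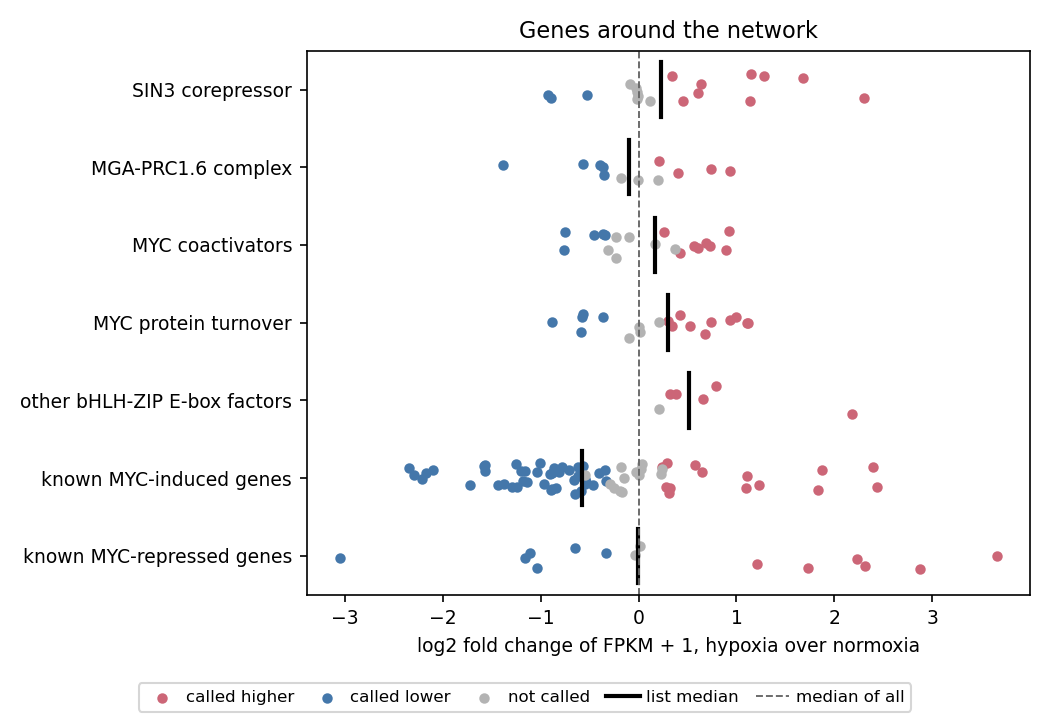
Log2 fold change of FPKM + 1, hypoxia over normoxia, of each counted gene in 7 lists around the network (points, coloured by the authors' calls), with the list median (black bar) and the median of all counted measurements (dashed line). The median of known MYC-induced genes lies at -0.58, and the MYC-repressed genes spread to both sides.

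Of the genes that MYC is known to induce, those of ribosome production mostly fell, and the rest were mixed. That nucleolar genes on this list fall was known from earlier results of these data, so its direction is not independent evidence. Of 70 counted genes 43 fell, 14 rose and 13 were not called in the authors' deposited table, with a median log2 fold change of -0.58. In a split made after the values were seen, 28 of 32 ribosome production genes fell (87.5%) and 3 rose, whereas 15 of the other 38 genes fell (39.5%), 11 rose (28.9%) and 12 were uncalled, beside 31% lower and 32.3% higher among all counted measurements. The medians of these parts were -0.90 and -0.17. The nucleolar protein gene Npm1, one of the 3 that rose and named after its values were seen, went from 742 to 1160.4 FPKM (1.56-fold) in the authors' deposited table. The largest falls were in ribosome production: Rrp12, Bysl, Rrp9 and Ddx21 fell 12.5-fold, 7.14-fold, 6.14-fold and 5.08-fold, and Bysl, which is needed for the small subunit, went from 14.0 to 1.96 FPKM. Outside ribosome production well-known targets went different ways, and the genes from Odc1 to Eif4e below were named after their values were seen. Odc1, the rate-limiting enzyme of polyamine synthesis, fell from 172 to 74.3 FPKM (2.31-fold), the spermidine synthase gene Srm from 74.3 to 21.8 FPKM (3.40-fold) and Cad, which starts pyrimidine synthesis, from 28.3 to 11.3 FPKM (2.50-fold). The cell cycle genes Cdk4 (644 and 645 FPKM) and Ccnd2 (33.9 and 34.5 FPKM) and the translation factor gene Eif4e (124 and 146 FPKM) were uncalled in the authors' deposited table. The genes that rose most were Hk2 (5.88-fold, from 9.08 to 53.4 FPKM), Ldha (5.25-fold), Tmem97 (3.70-fold) and Tfrc, the gene of the transferrin receptor (3.67-fold, from 25.8 to 94.6 FPKM). Hk2, Ldha and Tfrc are also known HIF targets. CACGTG stood in a RefSeq window of 11 of 37 matched genes of this list that fell (29.7%), of 3 of 12 that were uncalled (25.0%) and of 2 of 12 that rose (16.7%), beside the 12.0% of expressed genes given above; these differences were not tested.

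Genes that MYC is known to repress had no common direction. Of 14 counted genes 6 rose, 6 fell and 2 were not called in the authors' deposited table, with a median log2 fold change of -0.0087. The shares higher and lower were both 42.9%, beside 32.3% and 31% of all counted measurements. Ndrg1 rose 12.8-fold from 72.8 to 930.5 FPKM, the cell cycle inhibitor gene Cdkn1a (p21) rose 7.53-fold from 30.3 to 228 FPKM, Ndrg2 rose 5.48-fold and Ddit3 rose 4.81-fold. Gas1 fell 8.96-fold, Cebpa fell 5.72-fold from 2.02 to 0.353 FPKM, Cdkn2b fell 2.22-fold and Thbs1 fell 2.11-fold. Ndrg1 is a known HIF target and Ddit3 a target of the integrated stress response.

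All 8 HIF targets chosen as a check of the labels rose in the authors' deposited table, from 2.72-fold (Egln3) to 54.5-fold (Adm). Of 8 counted fibroblast markers 2 rose (Vim and Fn1), 4 fell (Col1a2, Col3a1, Pdgfrb and Thy1) and 2 were uncalled in the authors' deposited table, with a median log2 fold change of -0.28. Their levels were uneven, with Vim at 883 and 2249 FPKM and Col1a1 at 463 and 451 FPKM, but Pdgfra at 3.11 and 3.22 FPKM and Thy1 at 8.65 and 5.72 FPKM. Summed markers were 0.220 and 0.160 FPKM for endothelial cells and 1.35 and 2.32 FPKM for leukocytes, with Adgre1, Cd3e and Itgam listed at 0 in both conditions. Most of the leukocyte sum was Cd68, the only one of these markers tested. It rose from 1.32 to 2.27 FPKM (q = 0.00669 in the authors' deposited table). Of 6 epithelial markers 5 were tested, 1 rose and 3 fell in the authors' deposited table, and the summed level was 369 FPKM in normoxia and 473 FPKM in hypoxia. Krt18 made up most of this sum (313 and 443 FPKM), and Epcam was at 5.97 and 5.22 FPKM. The part of these markers in the results on the network was not tested. In bulk RNA, fewer cells of a type and less RNA per cell cannot be told apart.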

How the data were processed

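RNA from 6 samples (3 per condition) was made into stranded poly-A libraries, per the labels' protocols. The submitters' processing notes name the aligner HISAT2 2.1.0, the assembler StringTie 1.3.4d, and Cuffdiff 2.2.1 of Cufflinks, on GRCm38. The authors deposited 1 gene table with 1 FPKM per gene and condition, combined over replicates. Per the file headers it also gives the authors' log2 fold change, a score (the test statistic, left unused), a p-value and a q-value. No source used here gives the scaling between libraries.

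From the 53207 rows, repeats of 1 measurement under several identifiers were counted once (51482 measurements, 14575 tested by the authors). Folds are ratios of the deposited FPKM values, and calls are the deposited q below 0.05. No test over replicates was possible, and sequencing depth is unknown. Recomputed log2 ratios differed from the deposited ones by at most 1.2e-05. List medians used a pseudocount of 1, which understates changes of low genes. Coordinates are 1-based, from GENCODE M21 (GRCm38). Motif windows came from RefSeq. Counting was tested on simulated calls. Python 3.11.15, pandas 2.3.3 and numpy 2.4.6 were used.

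The members, lists and tests were chosen with earlier results of these data known. All 10 members are named. From each related list up to 4 called genes with the largest rise and up to 4 with the largest fall were named, or all called genes where there were 5 or fewer. A few of the genes so chosen are not reported here. Alternatives were a q of 0.01, a 2-fold threshold, other scalings, pseudocounts, filters and role definitions. Genes were not named for likeness of pattern, since 2 group values give none.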

Additional observations from a re-analysis of the deposited data

How the results depend on the processing

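The table holds 1 value per condition, so no replicate could be left out. No paired analysis was possible because the table holds group values and no values of single samples. All 10 member fold changes kept their direction under both other scalings. These divide every fold change by the same number, 0.991 or 1.17, so neither could move one by 1.5 times. A pseudocount added to both values cannot change a direction, and both pseudocounts moved the member folds by under 1.5 times. Scaling to the same summed FPKM, which was 1.17 times as high in hypoxia, shifted every log2 fold change by -0.22 and took Mycl and Mxd4 to 1.07-fold each. At a q below 0.01 Mycl was not called, which left 6 members higher. With a called change of at least 2-fold required, 3 members were higher and 1 lower. The rise in the antagonist to activator ratio was 1.69-fold without Mxi1 and Myc, which have the highest mean of their role over both conditions (in normoxia Mxd4 and Mxd3 exceed Mxi1). At a q below 0.01 the MLX list had 0 genes higher and the protein turnover list had 3 lower (Fbxw7 and Mycbp were lost). Without the FPKM filter 1 other E-box factor, Mitf, was lower. Without ribosome production genes 15 MYC-induced genes were lower. The median of MYC-repressed genes was 0.017 with a filter of 5 FPKM, a change of sign next to 0. Of 160 alternative values 152 kept direction and moved by at most 1.5 times, list medians being compared as folds and not as log2 values. The MYC-induced median therefore counted as kept, at -0.58 with ribosome production genes and -0.17 without them. Some of the 160 could not move, such as the antagonist to activator ratio under a common scaling. The count is thus no measure of robustness. Alternatives that equalise the summed FPKM for role sums, leave out Mxd3, or leave out ribosome production genes were added after seeing the data. Depth and replicate spread are unknown, which limits every value to the authors' q.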
